A study of Mus musculus with 12 samples.

Results

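Imprinted genes were followed in RNA sequencing of mouse embryonic stem cells. They were chosen by name, as the rows of the count table whose gene symbol was on a list of 35 imprinted protein-coding genes, and all 35 were found among the 22753 genes of the table. The cells were clones 4 and 10, each 1 clone derived from mice that carry a floxed Sphk1 and no Sphk2, the genes of the sphingosine kinases, which make sphingosine 1-phosphate. Every group carried the Sphk2 deletion and every group had received 4-hydroxytamoxifen at 6 uM for 48 hours, so no untreated cells and no cells with Sphk2 entered any comparison. Cells were then sorted by the fluorescence of Cre-GFP. GFP-negative cells are labelled Sphk1fl/fl Sphk2-/- and GFP-positive cells Sphk1-/- Sphk2-/-. Each gate of each clone is represented by 3 libraries, 12 in 4 groups, at passages 11 to 16 for clone 4 and 11 to 20 for clone 10. The 3 libraries of a group are at different passages, but nothing in the labels says that replicates were separate cultures or sorts. The p-values therefore measure only the spread among these libraries, which includes passage and may be technical in part.

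An imprinted gene is transcribed mainly from the copy inherited from 1 parent, because DNA methylation set in the egg or the sperm marks a control region and is kept on that copy after fertilization. Imprinted genes lie in clusters that share a control region, and many of them act on the growth of the embryo and placenta: genes expressed from the paternal copy, such as Igf2, tend to promote growth, and genes expressed from the maternal copy, such as Cdkn1c and Igf2r, tend to restrain it. Cultured embryonic stem cells are known to lose or gain these methylation marks, so that lines and clones can differ in imprinted genes. The count table does not separate the parental copies, and all values here are totals over both.

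ZFP57, a zinc finger protein that keeps methylation at imprinted control regions, recognizes the letters TGCCGC when their CG pair is methylated. These letters were searched on both strands of RefSeq promoter windows on GRCm38.p6, which has the coordinates of mm10, each window holding 250 bases before and 50 after a transcription start. For 29 of the 35 genes the table had at least 1 window, and 10 of the 29 genes (34.5%) held the letters in at least 1 window, against 13.1% of all 27025 genes in the table. The 44 windows of these genes had a median of 15.5 CG pairs, against 7 over all 32851 windows. Counted by window, 11 of the 44 held the letters, against 11.6% of all windows. Mest held them in 2 of its 3 windows and Igf2 in 1 of its 4. Some genes had several windows, which gives more chances for a match. The letters contain a CG pair, so windows with more CG pairs also have more chances, and the part of this was not tested. A match is a description of the letters and not a binding site. Peg10, Sgce, Cdkn1c, Kcnq1, Rtl1 and Impact had no window. A window of Mest and one of Igf2 that hold the letters, and the single window of Magel2, are printed because Mest and Igf2 differed between the clones and Magel2 had the largest change with the GFP gate. Capitals mark the letters TGCCGC, or GCGGCA where they lie on the other strand. The Mest window (chr6:30737800-30738099, plus strand) has 2 matches and 17 CG pairs (a second Mest window, starting at 30737803, overlaps it and holds the same matches), the Igf2 window (chr7:142661222-142661521, minus strand) has 1 match and 14 CG pairs, and the Magel2 window (chr7:62376729-62377028, plus strand) has 0 matches and 10 CG pairs.
Mest: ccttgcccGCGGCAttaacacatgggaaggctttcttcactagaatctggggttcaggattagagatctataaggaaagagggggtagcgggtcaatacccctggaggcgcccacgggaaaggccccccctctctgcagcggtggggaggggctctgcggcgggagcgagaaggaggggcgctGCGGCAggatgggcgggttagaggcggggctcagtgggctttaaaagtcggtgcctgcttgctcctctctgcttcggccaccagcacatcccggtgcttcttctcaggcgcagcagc
Igf2: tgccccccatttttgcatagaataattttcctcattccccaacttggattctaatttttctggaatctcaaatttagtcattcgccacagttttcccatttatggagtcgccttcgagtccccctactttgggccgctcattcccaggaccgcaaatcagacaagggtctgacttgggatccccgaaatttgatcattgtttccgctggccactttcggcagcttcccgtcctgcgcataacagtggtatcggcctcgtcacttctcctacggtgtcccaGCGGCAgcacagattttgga
Magel2: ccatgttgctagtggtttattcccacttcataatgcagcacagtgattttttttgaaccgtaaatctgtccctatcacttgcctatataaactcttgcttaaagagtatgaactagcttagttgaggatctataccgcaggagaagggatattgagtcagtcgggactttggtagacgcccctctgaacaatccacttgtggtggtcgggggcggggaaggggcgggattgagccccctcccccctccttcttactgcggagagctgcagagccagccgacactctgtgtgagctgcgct

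Libraries held 12968916 to 34258395 counts in genes, with the lowest total in clone 10 GFP-negative replicate 1. Levels are in CPM, the count scaled to the library's effective size. Sphk1 (ENSMUSG00000061878, chromosome 11), the floxed gene, was at 1.92, 2.8 and 1.74 CPM in GFP-negative and 1.89, 1.00 and 0.730 CPM in GFP-positive replicates 1 to 3 of clone 4. In clone 10 it was at 0.836, 1.51 and 4.17 CPM in GFP-negative and 0.870, 1.21 and 2.86 CPM in GFP-positive cells. Sphk2 (ENSMUSG00000057342, chromosome 7) ranged from 1.16 to 8.95 CPM. The deleted exons are not named in the labels, so these gene totals do not check them. All 10 stem cell markers, Pou5f1 and Nanog among them, were detected in every library. Other marker lists were summed over the genes that passed the filter on low counts. There 19 of 20 fibroblast genes summed to 110 to 1230 CPM, 7 primitive endoderm genes to 17.8 to 41.2 CPM and 5 of 6 trophoblast genes to 59.9 to 136 CPM. The 8 genes of the 2-cell-like state, a rare state of stem cell cultures, summed to 2.65 to 182 CPM in clone 4 and 48.1 to 2480 CPM in clone 10.

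The 35 imprinted genes summed to 1710 to 2270 CPM in the libraries of clone 4 and 2080 to 3110 CPM in those of clone 10. All 35 passed the filter on low counts. Per kilobase of exon, averaged over the 12 libraries, Cd81 (a tetraspanin of the cell surface) stood highest at 114 CPM per kb, followed by Grb10 (an adaptor that restrains insulin and IGF signalling) at 51.4, Peg10 (a placental gene derived from a retrotransposon) at 42.1 and Slc38a4 (an amino acid transporter) at 40.8. In clone 4 GFP-negative cells Grb10, Peg10 and Slc38a4 stood at 43.2 ± 25.8, 30.1 ± 16.6 and 40.8 ± 15.3 CPM per kb (SD, n = 3), within their spread. Their levels among GFP-positive libraries of clone 10 were 54.3 ± 17.9, 60.8 ± 10.2 and 40.2 ± 5.26 CPM per kb, and there Peg10 and Slc38a4 do not overlap. Cd81 stood above them at 104 ± 27.5 and 132 ± 19.7 CPM per kb in these groups. Impact (a regulator of translation) at 22.6 and Igf2r (the receptor that carries IGF2 to lysosomes) at 20.0 CPM per kb came further down, and their order differed between the clones. Impact was at 14.0 ± 4.84 and Igf2r at 24.1 ± 6.61 CPM per kb in clone 4 GFP-positive cells, without overlap, against 29.6 ± 14.1 and 14.2 ± 6.41 in clone 10 GFP-negative cells. At the low end were Zim1 (a zinc finger gene) at 0.070 and Rtl1 (a retrotransposon-derived gene of placenta and muscle) at 0.188 CPM per kb. Exon lengths come from a different annotation than the counts, and for Phlda2, Ndn and Usp29 they exceed the gene span given with the counts, so no level per length is given for these.

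**Figure D1:**
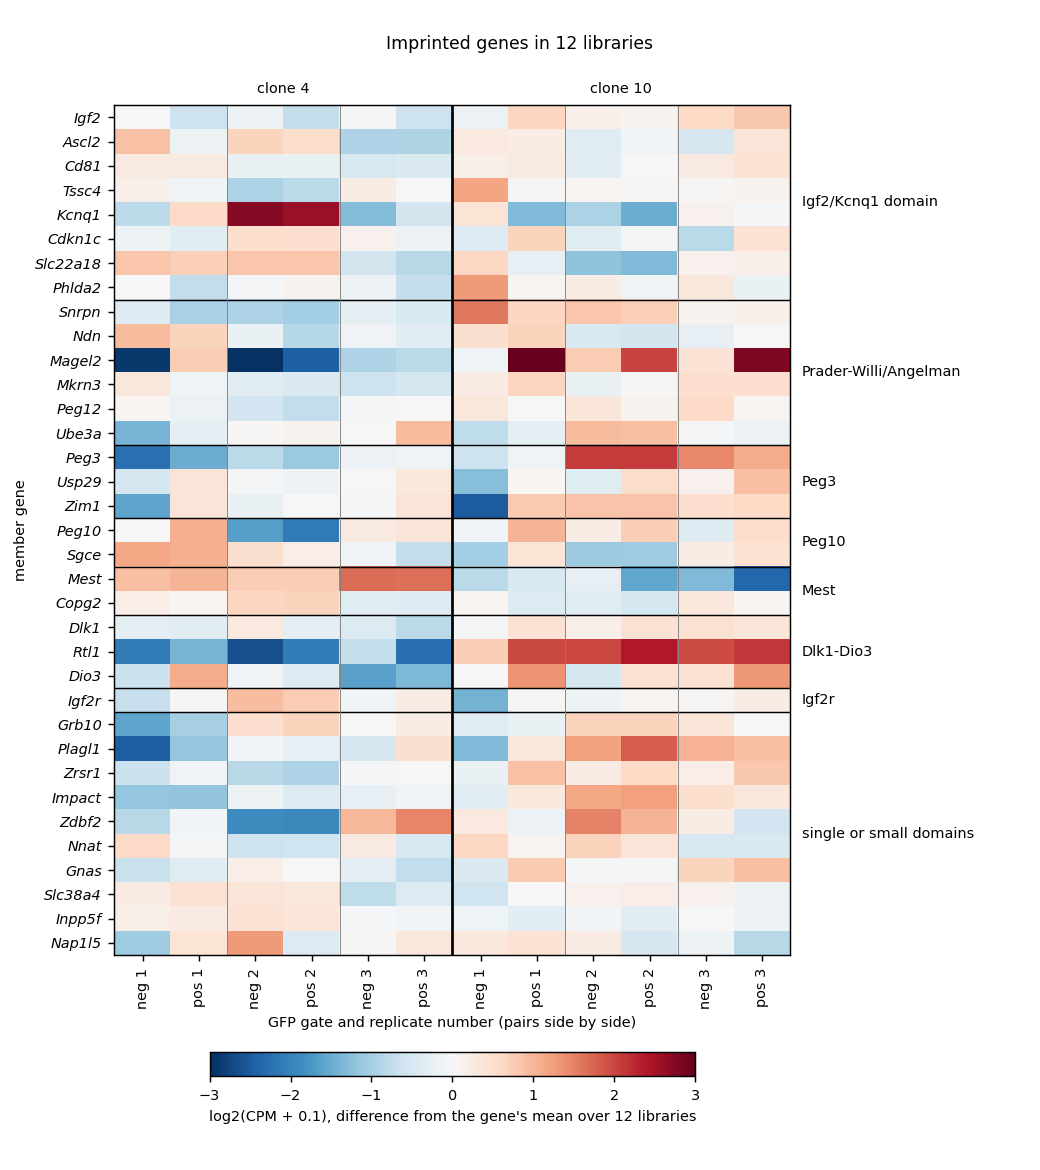
Level of each imprinted gene (rows, grouped by domain) in each library (columns), as log2(CPM + 0.1) minus the mean of the gene over the 12 libraries, with colours capped at 3 in either direction. Columns are grouped by clone, with the GFP-negative and GFP-positive library of a replicate number side by side. Rtl1 and Magel2 are higher and Mest lower in clone 10, and neighbouring columns of a replicate number look alike for Kcnq1, Zdbf2 and Peg3.

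The gates of clone 4 were compared first, to ask which imprinted genes differed with the sort. No member passed the test. Igf2, the fetal growth factor gene (ENSMUSG00000048583, mm10 chromosome 7, 142650766 to 142666816), had the smallest p. Its level was 29.4, 26.4 and 28.3 CPM in GFP-negative replicates 1 to 3 and 19.0, 17.7 and 18.8 CPM in GFP-positive replicates. All 3 GFP-negative values lie above all 3 GFP-positive values, and each pair of libraries with the same replicate number shows the lower value in GFP-positive cells. The log2 change was -0.60 (SE 0.25, 95% confidence interval -1.14 to -0.07, adjusted p = 1). Because libraries sharing a replicate number deviated together within each clone, a second fit compared the gates within the 6 pairs. In 5 of the 6 pairs the GFP-positive library is 1 passage later than its partner, and in clone 4 pair 1 both are at passage 11, so gate and passage cannot be told apart within the other pairs. There the change of Igf2 was -0.60 (SE 0.17, interval -0.99 to -0.21, adjusted p = 0.394). Next by p within pairs were Ube3a (a ubiquitin ligase gene of the Angelman domain) and Ndn (a gene of the MAGE family, in the Prader-Willi domain), at 0.71 (SE 0.21, adjusted p = 0.462) and -0.39 (SE 0.15, adjusted p = 0.612).

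In clone 4 edgeR called 0 of the 35 genes at an adjusted p under 0.05 both across libraries and within pairs, against 0% and 0.119% of the 15179 genes tested. At an unadjusted p under 0.05 there were 1 and 5 of the 35, against 1.38% and 7.42% of all genes. DESeq2 and limma-voom called 0 each, without or with the pairs. Over all genes they called 33 and 0 without the pairs and 182 and 6 with them. The median log2 change of the 35 genes within pairs was -0.03, against 0.00 over all genes, and 16 of 35 were above 0. Groups did not overlap for 2 of the 35, Igf2 (lower, as for 1.89% of all genes) and Zim1 (higher, as for 1.86%), against 3.75% in either direction. Fibroblast markers also had lower sums in GFP-positive cells of clone 4. From the GFP-negative to the GFP-positive library of pairs 1 to 3 the sum went from 235 to 142, 746 to 352 and 475 to 206 CPM. Of the 19 tested markers, 17 had a negative change within pairs, and at most 1 of the 20 was at 0 in a library. In clone 10 the sum went from 110 to 218, 472 to 274 and 1230 to 681 CPM, and 3 of the 19 had a positive change within pairs. There Igf2 went from 26.0 to 45.6, 32.6 to 31.2 and 44.2 to 50.8 CPM. In these bulk libraries fewer cells of a type and less RNA per cell cannot be told apart, and the part of these cells in the Igf2 values was not tested. Igf2 was called in 1 of 31 alternatives, the fit within pairs without clone 10 pair 1, where 205 of all genes were called.

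In clone 10 Cdkn1c was higher in GFP-positive cells within pairs. Cdkn1c (ENSMUSG00000037664, chromosome 7, 143458350 to 143461050) encodes the cyclin-dependent kinase inhibitor p57. It stood at 16.0, 16.4 and 12.0 CPM in GFP-negative replicates 1 to 3 and at 33.6, 20.0 and 28.5 CPM in GFP-positive replicates. The groups do not overlap, and the rise was smallest in pair 2. The log2 change within pairs was 0.87 (SE 0.20, interval 0.42 to 1.31, adjusted p = 0.0466). Across libraries it was 0.89 (SE 0.31, adjusted p = 0.437), which did not pass. In clone 4 Cdkn1c was at 18.8, 30.3 and 22.9 CPM in GFP-negative and 16.7, 29.7 and 18.4 CPM in GFP-positive cells, lower in all 3 pairs by less than the spread (log2 change within pairs -0.17, SE 0.19). The difference between the clones in this change was 1.03 within pairs (SE 0.27, adjusted p = 0.528), which did not pass.

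Magel2, a MAGE family gene of the Prader-Willi domain that takes part in protein recycling by endosomes (ENSMUSG00000056972, chromosome 7, 62376979 to 62381640), had the largest change in clone 10. GFP-negative replicates 1 to 3 were at 2.7, 5.04 and 4.03 CPM, from 29, 153 and 87 counts. GFP-positive replicates were at 31.3, 12.3 and 21.1 CPM, from 611, 387 and 450 counts. Every GFP-positive value lies above every GFP-negative value. The log2 change was 2.45 across libraries (SE 0.78, adjusted p = 0.363) and 2.32 within pairs (SE 0.58, interval 1.01 to 3.64, adjusted p = 0.0605), and neither passed. The authors' deposited table gives Magel2 a log2 change of 1.90 with an adjusted p of 6.96e-06, and it is the 1 gene called of the 34 imprinted genes with an adjusted p in that table, which calls 418 of 15479 genes. In clone 4 the same gene was at 0.312, 0.290 and 1.51 CPM in GFP-negative and 4.99, 0.456 and 1.64 CPM in GFP-positive cells, with most of the difference in pair 1. These clone 4 values rest on few reads: 7 and 6 counts in GFP-negative replicates 1 and 2, and 10 in GFP-positive replicate 2.

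Other imprinted genes of clone 10 had values between the gates that did not pass. Peg10 was at 222, 276 and 182 CPM in GFP-negative and 478, 395 and 343 CPM in GFP-positive replicates 1 to 3 (log2 change within pairs 0.85, SE 0.26, adjusted p = 0.0996). Dio3, which encodes a deiodinase that inactivates thyroid hormone, was at 8.46, 5.83 and 11.6 CPM against 21.9, 11.6 and 21.1 CPM (1.07, SE 0.34, adjusted p = 0.108). Both genes were higher in GFP-positive cells in every clone 10 pair. Phlda2, a gene that restrains placental growth and lies near Cdkn1c in the same domain, was at 95.5, 45.5 and 49.3 CPM in GFP-negative and 41.1, 36.0 and 33.8 CPM in GFP-positive cells (-0.70, SE 0.22, adjusted p = 0.105). So of these neighbours Cdkn1c had higher and Phlda2 lower values in each GFP-positive library of clone 10. Zrsr1, a retrogene related to a splicing factor, was at 31.7, 42.4 and 42.2 CPM against 67.4, 55.7 and 64.4 CPM (0.69, SE 0.18, adjusted p = 0.0661). Zdbf2, a zinc finger gene, was at 101, 231 and 95.2 CPM against 72.8, 168 and 55.5 CPM (-0.57, SE 0.15, adjusted p = 0.0754). Zrsr1 and Zdbf2 were chosen after their values were seen.

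**Figure D2:**
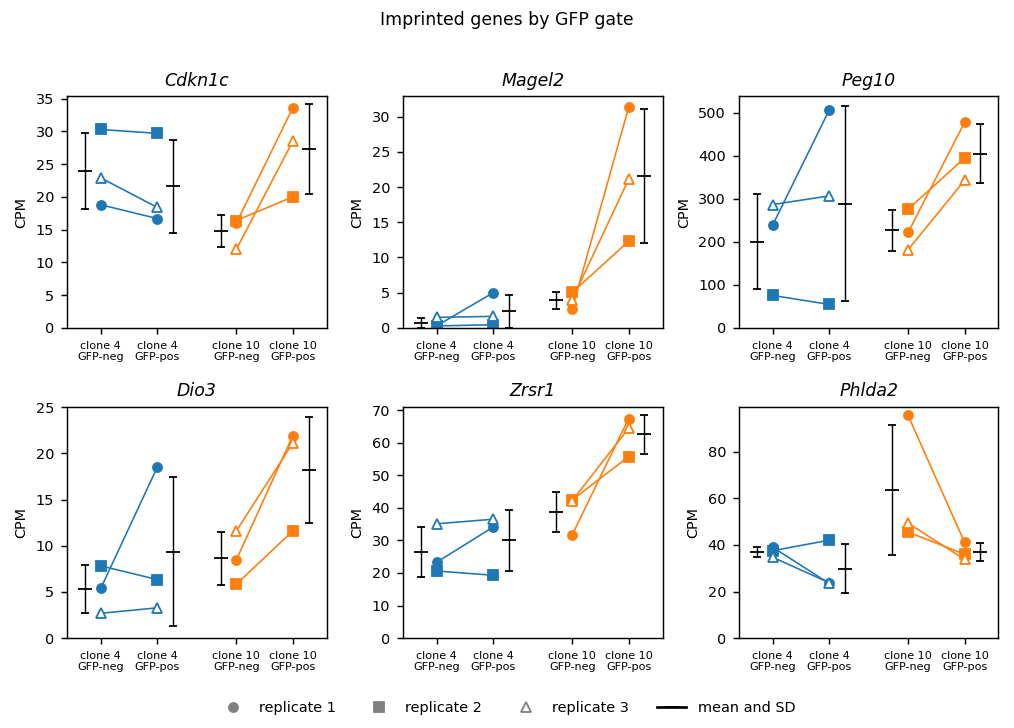
CPM of 6 imprinted genes by clone (clone 4 blue, clone 10 orange) and GFP gate. Lines join libraries of the same replicate number, and black bars give the mean and SD of 3 libraries, ended at 0 where they would pass below it. In clone 10 all 3 GFP-positive values of Cdkn1c, Magel2, Peg10, Dio3 and Zrsr1 lie above, and those of Phlda2 below, the GFP-negative values.

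Across libraries, edgeR called 0 of the 35 genes in clone 10, against 0% of all genes (4 at an unadjusted p under 0.05, against 7.45%). There DESeq2 called 1 (Magel2) and limma-voom 0, with 289 and 20 of all genes called. Within pairs 1 of 35 was called, and it was higher, against 3.49% of all genes called higher and 4.22% called in either direction, a share near the background. At an unadjusted p under 0.05 there were 12 of 35 within pairs, against 25.2% of all genes. The median change of the 35 genes within pairs was 0.16, against -0.01 over all genes, and the median size of change 0.37 against 0.29. Groups did not overlap for 6 genes that were higher (Igf2r, Cdkn1c, Zrsr1, Magel2, Dio3, Peg10) and 3 that were lower (Phlda2, Inpp5f, Peg12), against 9.39% higher, 5.57% lower and 15% in all among the genes tested. The 2-cell-like markers moved with the gate: their sum rose from 119 to 2480, 68.1 to 622 and 48.1 to 1530 CPM in pairs 1 to 3 of clone 10, and all 8 were called higher within pairs. In clone 4 the sum went from 9.5 to 182, 2.65 to 24.6 and 4.12 to 21.5 CPM. Stem cell markers had lower values in GFP-positive cells of clone 10, with sums of 13500 against 7150, 8740 against 8000 and 8410 against 6540 CPM in pairs 1 to 3. Of the 10 stem cell markers, 9 had a negative change within pairs, 6 had an unadjusted p under 0.05, and 0 were called. The pair with the largest GFP-positive sum of the 2-cell-like markers in each clone, pair 1, also has the highest GFP-positive values of Magel2, Peg10 and Dio3. In clone 10 this held for Cdkn1c and Zrsr1 too. In clone 4 GFP-positive cells, Cdkn1c was lowest in pair 1 (16.7 CPM against 29.7 and 18.4) and Zrsr1 was at 34.1 CPM there against 36.5 in pair 3. The part of the 2-cell-like or stem cell markers, or of cells that express them, in the values was not tested. The call of Cdkn1c was lost within pairs when any pair but clone 10 pair 2 was left out. With the pairs, DESeq2 called 7 of the 35 (Cdkn1c, Dio3, Magel2, Peg10, Phlda2, Zdbf2, Zrsr1) and limma-voom 2 (Cdkn1c, Magel2). Of the 15179 genes tested, they called 1573 and 781.

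Averaged over both clones, no imprinted gene passed in either fit, against 0.158% of all genes called across libraries and 3.36% within pairs, with 4 and 11 of the 35 at an unadjusted p under 0.05, against 6.77% and 26.3% of all genes. DESeq2 across libraries called 1 (Magel2) and limma-voom 0, with 286 and 1 of all genes called. Magel2 was higher in GFP-positive cells in 6 of 6 pairs, with a mean log2 change of 2.08 across libraries (SE 0.56, adjusted p = 0.204) and 1.93 within pairs (SE 0.47, interval 0.85 to 3, adjusted p = 0.0658). Cd81 was also higher in 6 of 6 pairs, by small amounts: from 386 to 389, 279 to 281 and 232 to 237 CPM in clone 4 and from 365 to 387, 253 to 320 and 391 to 433 CPM in clone 10. Phlda2 was lower in 5 of 6 pairs (mean change within pairs -0.53, SE 0.15, adjusted p = 0.0976).

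Whether the GFP change differed between the clones was tested directly. No member passed in either fit, against 0% of all genes in both, with 2 and 5 of the 35 at an unadjusted p under 0.05 against 0.922% and 7.69% of all genes. Zdbf2 had the smallest p within pairs, at -0.97 (SE 0.22, interval -1.47 to -0.47, adjusted p = 0.528). In clone 4 its level went from 46.3 to 77.3, 21.8 to 21.6 and 165 to 226 CPM in pairs 1 to 3, and in clone 10 it was lower in all 3 GFP-positive libraries. The difference for Igf2 was 0.91 within pairs (SE 0.24, adjusted p = 0.528). Without the pairs DESeq2 and limma-voom called 0 of the 35 each, and 0 of all genes. With the pairs DESeq2 called Zdbf2 alone among the 35, and 62 of all genes.

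**Figure D3:**
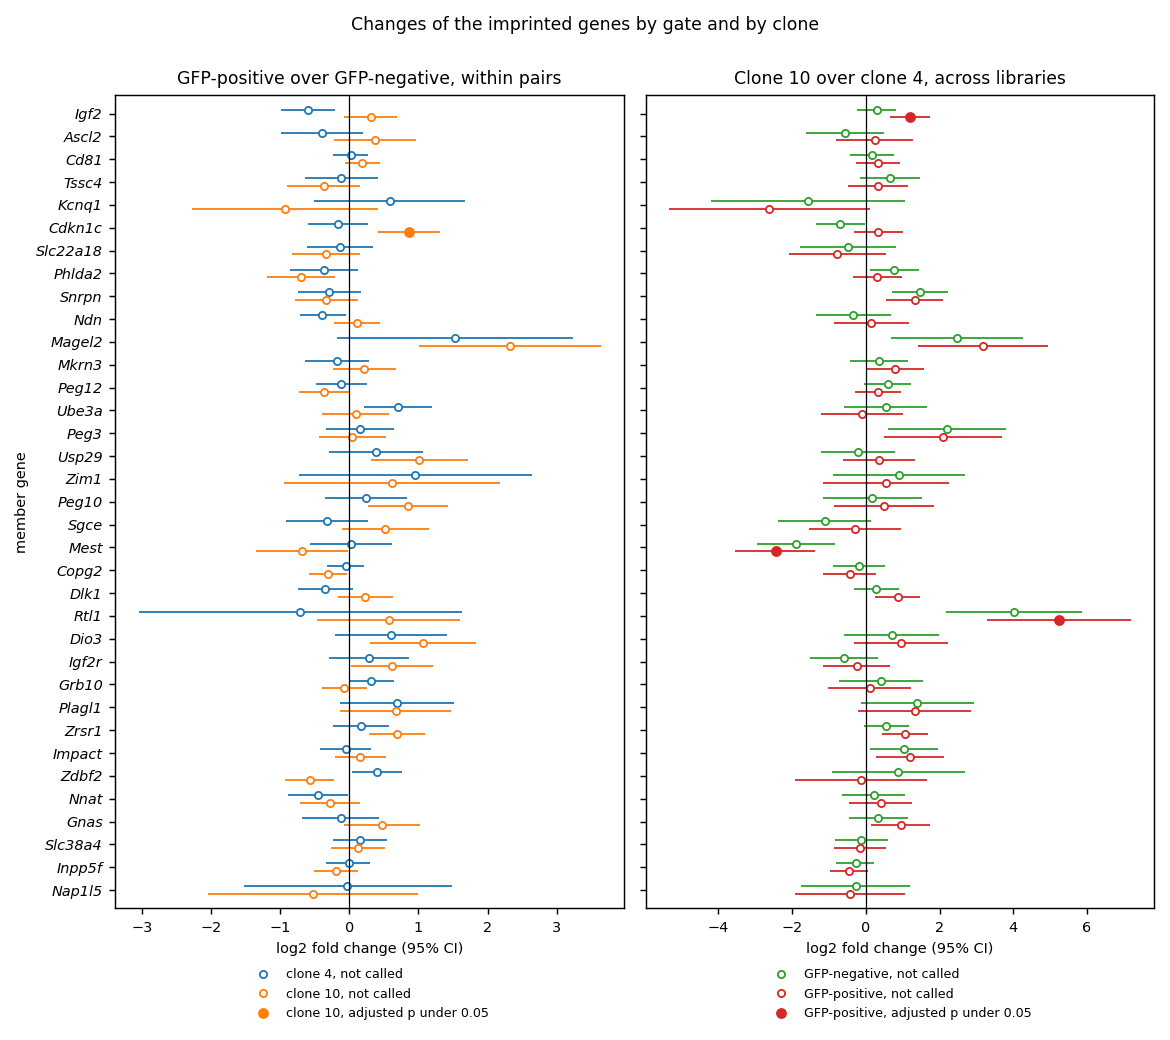
Log2 fold change of each imprinted gene with its 95% confidence interval. The left panel gives GFP-positive over GFP-negative cells within pairs, for clone 4 and clone 10. The right panel gives clone 10 over clone 4 across libraries, in GFP-negative and in GFP-positive cells. Filled points passed an adjusted p under 0.05: Cdkn1c in the left panel and Igf2, Mest and Rtl1 in the right panel.

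The clones were then compared within each gate, in the fit without pairs, because both libraries of a pair belong to the same clone. That fit takes its spread from all 12 libraries as if independent, although libraries sharing a replicate number deviated together. Among GFP-positive cells, Rtl1 and Igf2 were higher and Mest was lower in clone 10. Rtl1 (ENSMUSG00000085925, chromosome 12, 109589194 to 109600330) lies in the Dlk1-Dio3 domain. In GFP-positive cells it had 3, 1 and 1 counts in clone 4 and 46, 101 and 56 counts in clone 10, which is 0.135, 0.0456 and 0.0304 CPM against 2.36, 3.20 and 2.62 CPM. The groups are far apart, and the clone 4 values rest on 5 counts in all. The ratio of the summed counts, scaled by effective library size, was 43.2 (95% exact interval 18.2 to 135, for counting error only). The log2 difference in the fit was 5.24 (SE 0.90, adjusted p = 0.0302). With 0 to 7 counts in every clone 4 library, Rtl1 passed the filter on low counts only through clone 10, the clone where it is high. In GFP-negative cells Rtl1 had 1, 0 and 7 counts in clone 4 and 10, 73 and 50 counts in clone 10, a ratio of 18.1 (interval 8.93 to 42.8), with a log2 difference of 4.02 (SE 0.85, adjusted p = 0.108) that did not pass. An antisense transcript is known at Rtl1, and reads of the strands cannot be told apart here.

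Dlk1, which encodes a Notch ligand-like protein, and Dio3 flank Rtl1 in this domain. Dlk1 was at 10.7, 15.7 and 9.71 CPM in clone 4 and 12.3, 14.2 and 17.6 CPM in clone 10 in GFP-negative cells. In GFP-positive cells it was at 10.2, 10.7 and 7.33 CPM against 17.3, 17.5 and 16.6 CPM, groups that do not overlap, with a log2 difference of 0.87 (SE 0.28, adjusted p = 0.158). In clone 4 Dio3 was at 5.40, 7.82 and 2.69 CPM in GFP-negative and 18.5, 6.34 and 3.28 CPM in GFP-positive cells. The log2 difference of Dio3 between the clones was 0.70 and 0.96 in the 2 gates, neither called. All 3 genes of the domain had values above 0 for clone 10 over clone 4 in both gates, and the difference of Rtl1 was larger than those of its neighbours.

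Mest, which encodes a protein of the alpha/beta hydrolase family (ENSMUSG00000051855, chromosome 6, 30723547 to 30748455), was lower in clone 10. In GFP-positive cells it was at 31.5, 25.8 and 48.8 CPM in clone 4 and 11.3, 5.14 and 2.95 CPM in clone 10, a log2 difference of -2.45 (SE 0.50, interval -3.54 to -1.37, adjusted p = 0.0422). In GFP-negative cells it was at 29.1, 25.8 and 50 CPM against 8.83, 13.0 and 6.12 CPM, a difference of -1.90 (SE 0.49, adjusted p = 0.169) that did not pass. The clones do not overlap in either gate. Copg2, a coat protein gene that overlaps the end of Mest on the other strand, ranged from 69.9 to 145 CPM in clone 4 and 63.7 to 115 CPM in clone 10, with differences of -0.18 and -0.44.

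Igf2 differed between the clones in GFP-positive cells, where clone 10 was at 45.6, 31.2 and 50.8 CPM against the clone 4 values of 17.7 to 19.0 CPM given for the gate comparison. The log2 difference was 1.20 (SE 0.25, interval 0.66 to 1.74, adjusted p = 0.0441). In GFP-negative cells clone 10 was at 26.0, 32.6 and 44.2 CPM, which overlaps clone 4, with a difference of 0.29 (SE 0.25, adjusted p = 0.655). Its neighbours in the domain, read by the same test, gave -0.70 for Cdkn1c and 0.77 for Phlda2 in GFP-negative and 0.34 and 0.31 in GFP-positive cells, and neither was called in either gate.

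Snrpn, which encodes a protein of the spliceosome and stands at the centre of the Prader-Willi domain (ENSMUSG00000000948, chromosome 7, 59982495 to 60140219), was at 54.8, 37.6 and 59.0 CPM in clone 4 and 214, 128 and 76.5 CPM in clone 10 in GFP-negative cells. In GFP-positive cells it was at 36.4, 35.3 and 52.0 CPM against 111, 118 and 80.0 CPM. No value of clone 4 reached the lowest value of clone 10 in either gate. The log2 differences were 1.47 (SE 0.35, adjusted p = 0.150) and 1.32 (SE 0.35, adjusted p = 0.0865), and neither passed. Magel2, in the same domain, gave 2.46 (SE 0.82, adjusted p = 0.278) and 3.19 (SE 0.81, adjusted p = 0.0756). Of the other genes of the domain, Mkrn3 (a zinc finger gene) gave 0.36 and 0.80, Peg12 0.59 and 0.33, Ndn -0.34 and 0.15 and Ube3a 0.54 and -0.11, none of them called.

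Impact was at 45.8, 90.9 and 86.5 CPM in GFP-negative and 45.1, 76.5 and 94.1 CPM in GFP-positive cells of clone 4. In clone 10 it was at 82.4, 227 and 146 CPM and at 127, 239 and 128 CPM, with log2 differences of 1.03 and 1.19, neither called. Replicate 1 was the lowest in clone 4 in both gates. Of the genes with the highest levels, none was called between the clones. Igf2r was at 107, 330 and 164 CPM in GFP-negative and 177, 294 and 201 CPM in GFP-positive cells of clone 4, and at 64.9, 155 and 178 CPM and 178, 184 and 203 CPM in clone 10, with differences of -0.60 (interval -1.51 to 0.32) and -0.25 (interval -1.17 to 0.66). Slc38a4 was at 200, 222 and 99.9 CPM and at 231, 212 and 127 CPM in clone 4, and at 112, 185 and 184 CPM and at 170, 194 and 150 CPM in clone 10. Its differences were -0.12 (interval -0.83 to 0.60) and -0.15 (interval -0.86 to 0.56). The intervals for Grb10 were -0.72 to 1.54 and -1.03 to 1.22, and those for Cd81 were -0.42 to 0.76 and -0.26 to 0.92.

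**Figure D4:**
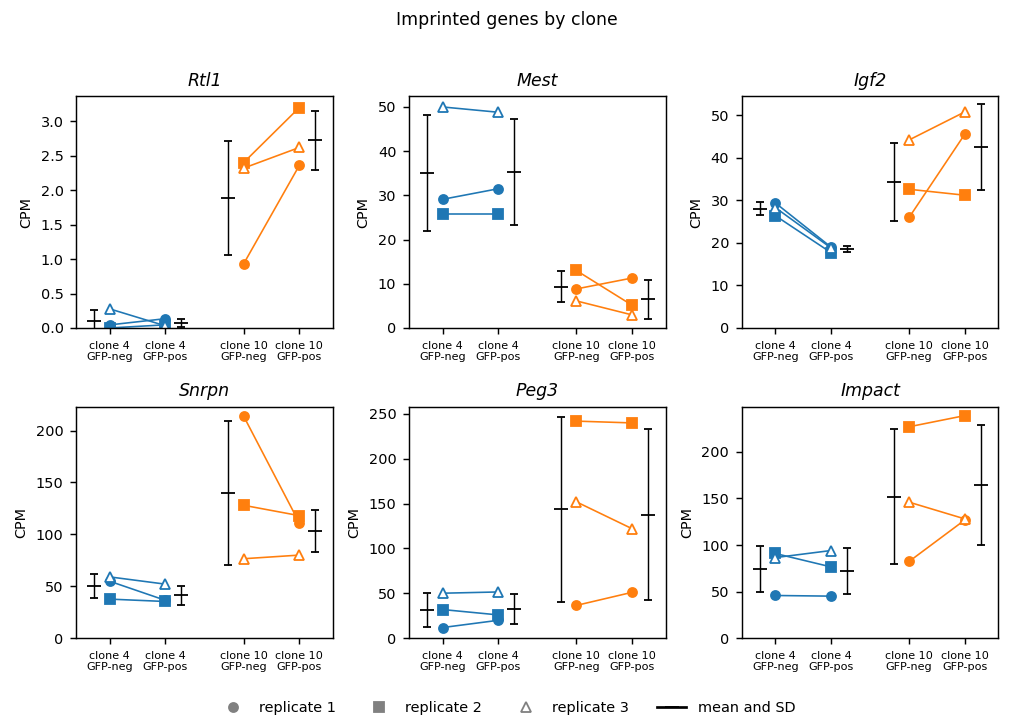
CPM of 6 imprinted genes by clone (clone 4 blue, clone 10 orange) and GFP gate, drawn as in the plot of genes by gate. Rtl1 lies at 0 to 0.277 CPM in clone 4 and 0.929 to 3.20 CPM in clone 10, Mest lies lower in clone 10, and replicates of Peg3 in clone 10 are spread from 36.5 to 242 CPM.

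Among GFP-positive cells edgeR called 3 of the 35 genes between the clones, 2 higher and 1 lower, against 1.11% of all genes, 0.83% higher and 0.277% lower. One of the 3 is Rtl1, which met the filter through clone 10 alone. Among GFP-negative cells edgeR called 0 of 35, against 0.0461% of all genes, with 8 at an unadjusted p under 0.05 (11.9% of all genes). There limma-voom called 0 and DESeq2 called 5 (Magel2, Mest, Peg3, Rtl1, Snrpn), with 11 and 418 of all genes called. The median difference of the 35 genes was 0.29 in GFP-negative and 0.33 in GFP-positive cells, against 0.04 and 0.00 over all genes. The clones did not overlap for 7 of 35 genes in GFP-negative cells (5 higher, 2 lower) and 12 of 35 in GFP-positive cells (10 higher, 2 lower), against 13.8% (6.81% higher, 7.03% lower) and 24.8% (12.5% higher, 12.4% lower) of all genes. In both gates at once this held for Snrpn, Magel2 and Rtl1 (higher) and Mest (lower), against 8.22% of all genes. The 2-cell-like markers differed between the clones in the same libraries, with all 8 above clone 4 in both gates, and 4 of them called in GFP-positive cells. Fibroblast markers in GFP-positive cells summed to 142 to 352 CPM in clone 4 and 218 to 681 CPM in clone 10. Of the 19 tested, 13 were above clone 4 in GFP-negative and 18 in GFP-positive cells of clone 10. Their median log2 differences were 0.26 and 0.98, and 0 were called. Of the 10 stem cell markers, 9 were above clone 4 in GFP-negative cells of clone 10 (Nanog, Esrrb, Zfp42 and Sox2 without overlap) and 6 in GFP-positive cells. Of the 7 primitive endoderm markers, 5 and 6 were above clone 4 in the 2 gates, with median log2 differences of 0.22 and 1.14, and 0 of either list were called. The part of these cells in the differences was not tested. Each clone is a single line, so a difference between clones cannot be told apart from one between individual lines. Passage differs with the clone too: replicates 2 and 3 are at passages 13 to 16 in clone 4 and 17 to 20 in clone 10.

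The 3 calls among GFP-positive cells depended on the libraries. None of the 3 was called without clone 4 GFP-positive replicate 2 or 3 or clone 10 GFP-positive replicate 1 or 3. In those fits 0, 0, 0 and 3 of all genes were called, against 168 with all libraries. Without any 1 clone 4 GFP-negative library, Rtl1 alone of the 35 genes was called, with 95 to 129 of all genes. Rtl1 was also alone with only the groups compared, with 38 of all genes. Over the 12 fits that left out 1 library, Rtl1 was called in 8, Igf2 in 3 and Mest in 2. Rtl1 was called in 15 of 19 alternatives (adjusted p 7.41e-07 to 0.146), Mest in 9 of 20 (7.45e-05 to 0.151) and Igf2 in 7 of 20 (0.000284 to 0.188), and the sign of each was the same in all of them.

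Imprinted genes also differed among the replicate pairs of a clone. This was tested, after the data were seen, with the pair terms of the fit within pairs. In clone 4, 21 of the 35 genes differed among the 3 pairs, 60% against 44.7% of all genes. In clone 10 it was 13 of 35, 37.1% against 27.7% of all genes. These counts fell to 7 in clone 4 without clone 4 pair 3 and to 1 in clone 10 without clone 10 pair 2. Over all genes the counts fell there from 6789 to 2574 and from 4203 to 327. The imprinted genes came to 12 and 13 in clone 4 without its pair 1 or 2, with 4827 and 2662 of all genes. In clone 10 they came to 8 without its pair 3 and 7 without clone 4 pair 3, with 3137 and 1688 of all genes. The median range between the highest and lowest pair was 0.95 and 0.86 on the log2 scale in clones 4 and 10, against 0.78 and 0.69 over all genes. Genes described next were chosen for these ranges after their values were seen, except Peg10 and Grb10.

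Kcnq1, a potassium channel gene, had the widest range in clone 4, at 3.65. Pair 2 was at 4.15 and 3.74 CPM (86 and 82 counts) in GFP-negative and GFP-positive cells, whereas the other 4 libraries of clone 4 lay at 0.159 to 0.855 CPM (4 to 19 counts). Reads of its antisense partner Kcnq1ot1 cannot be told apart from it in these counts. Zdbf2, with a range of 3.15, was lowest in the same pair, at 21.8 and 21.6 CPM, and highest in pair 3, at 165 and 226 CPM. Peg10, with a range of 2.43, was also low in pair 2, at 75.6 and 54.8 CPM, against 239 and 506 CPM in pair 1 and 287 and 307 CPM in pair 3. So pair 2 of clone 4 was high for Kcnq1 and low for Zdbf2 and Peg10, which lie on chromosomes 7, 1 and 6. Grb10, with a range of 1.88, was low in pair 1, at 142 and 212 CPM, against 606 and 674 CPM in pair 2 and 431 and 497 CPM in pair 3.

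In clone 10 the widest range was that of Peg3, a zinc finger gene, at 2.48. Pair 1 was at 36.5 and 51.1 CPM, pair 2 at 242 and 240 CPM and pair 3 at 152 and 122 CPM. Plagl1, which encodes a zinc finger transcription factor, followed at 2.01, with 9.39 and 30.1 CPM in pair 1, 55.1 and 84.1 CPM in pair 2 and 49.0 and 44.3 CPM in pair 3. Grb10 was at 332 and 372, 684 and 678, and 550 and 431 CPM in pairs 1 to 3. Pair 1 was thus lowest for Peg3, Plagl1 and Grb10 in both clones. In clone 4 Peg3 stood at 11.8 and 19.9, 31.9 and 25.9, and 50.1 and 51.5 CPM in pairs 1 to 3, and Plagl1 at 4.15 and 10.5, 22.4 and 19.8, and 16.6 and 32.8 CPM. Pair 1 has the earliest passage numbers of each clone, 11 in clone 4 and 11 and 12 in clone 10, and in clone 10 it holds the shallowest library. The part of passage and depth in these differences was not tested. Magel2 in clone 10 was nearly level among pairs (range 0.23), and Igf2 was so in clone 4 (range 0.13).

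**Figure D5:**
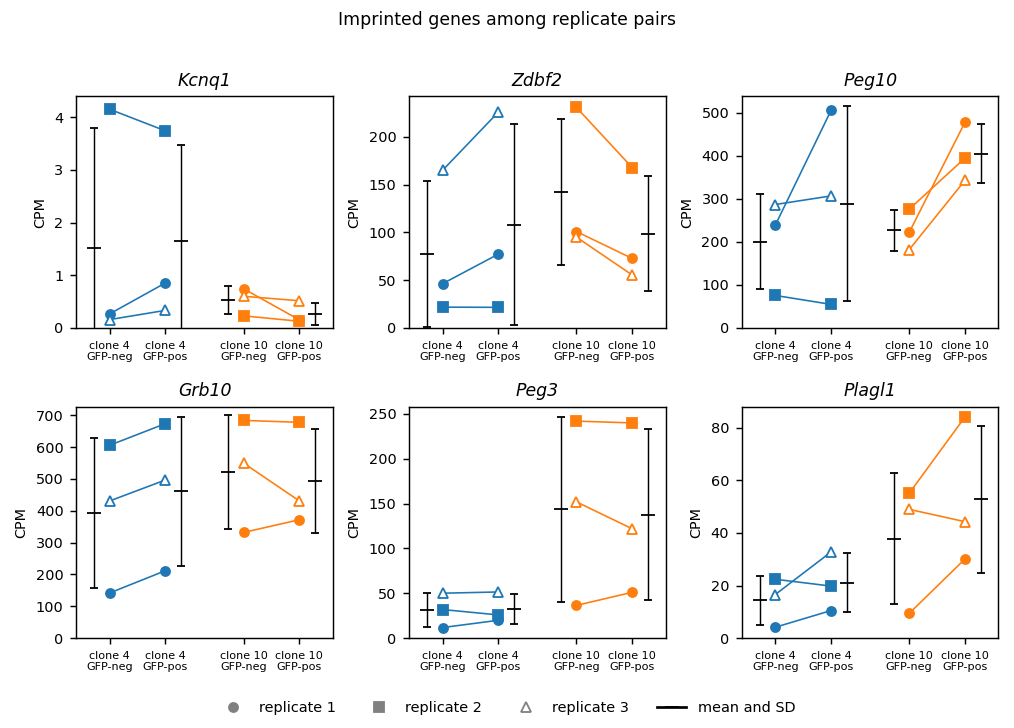
CPM of 6 imprinted genes that ranged widely among pairs, drawn as in the plot of genes by gate. Lines join the libraries of a pair. Pair 2 of clone 4 lies above the other pairs for Kcnq1 and below them for Zdbf2, and the 3 pairs of Peg3 in clone 10 lie apart from each other.

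By domain, the changes with the gate were read within pairs. There the 8 genes of the Igf2 and Kcnq1 domain had a median change of -0.15 in clone 4 (2 above 0) and -0.07 in clone 10 (4 above 0, from -0.93 to 0.87). The 6 genes of the Prader-Willi domain had medians of -0.15 and 0.10, with Magel2 at the top in both clones. The 3 genes of the Peg3 domain (Peg3, Usp29, Zim1) all had positive changes in both clones, with medians of 0.39 and 0.62, none of them called. Among these, Peg3 changed by less than its error (0.15, SE 0.22, and 0.04, SE 0.21), and Zim1 had 0 to 29 counts per library. Of Dlk1, Dio3 and Rtl1, 1 of 3 was above 0 in clone 4 (median -0.35) and 3 of 3 in clone 10 (median 0.57). The clone 4 change of Rtl1 (-0.71, SE 1.03) rests on 0 to 7 counts per library, with higher values in GFP-positive cells in 2 of 3 pairs. Peg10 and its neighbour Sgce had medians of -0.04 (1 of 2 above 0) and 0.68 (2 of 2), and Mest and Copg2 had medians of -0.01 (1 of 2) and -0.50 (0 of 2). Genes were also grouped by the parental copy mainly expressed according to background knowledge. Whether each gene is expressed from that copy in these cells was not tested, so the groups do not contrast measured copies. The 22 paternally expressed genes had a median change of -0.02 in clone 4 (10 above 0) and the 12 maternally expressed genes -0.02 (6 above 0). In clone 10 the medians were 0.19 (15 of 22 above 0) and 0.01 (6 of 12), and for the mean of both clones they were -0.02 and 0.05. Between the clones in GFP-positive cells the medians were 0.64 for the paternal and 0.17 for the maternal group, and in GFP-negative cells they were 0.32 and 0.00. The called genes Rtl1 and Igf2 (higher) and Mest (lower) are among the 22 paternally expressed genes, which make up most of the 35. Of these, Rtl1 met the filter on low counts through clone 10 alone. Cdkn1c, called with the gate in clone 10, is among the 12 maternally expressed genes. Gnas, which has transcripts of either kind, was left out of these groups. These medians are descriptions, with no test.

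Genes that set or keep imprints were read from the same fit, from a list of 32 of which 29 were tested. These include the maintenance methyltransferase Dnmt1 and its cofactor Uhrf1, the zinc finger protein Zfp57 and its partner Trim28. Without pairs edgeR called 0 of them in each of the 6 comparisons, with 0 to 5 of 29 at an unadjusted p under 0.05, against 0.922% to 14.3% of all genes. Within pairs 1 of 29 was called, a share near the 3.36% of all genes called in that comparison. It was Arid4a, which encodes a chromatin protein, for the mean of both clones: it was at 18.5, 31.6 and 36.5 CPM in GFP-negative and 41.4, 35.9 and 50.1 CPM in GFP-positive cells of clone 4. In clone 10 it was at 38.8, 56.1 and 45.9 CPM against 135, 78.2 and 90.2 CPM. It was higher in all 6 pairs, with a mean log2 change of 0.84 (SE 0.18, adjusted p = 0.048). The median change of the 29 genes within pairs was 0.18 in clone 4 and -0.21 in clone 10, against 0.00 and -0.01 over all genes. Of the 29, 22 were above 0 in clone 4 and 9 in clone 10. At an unadjusted p under 0.05 within pairs there were 4 in clone 4 and 12 in clone 10, against 7.42% and 25.2% of all genes. For the mean of both clones and the difference between them there were 6 and 5, against 26.3% and 7.69%.

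Of 54 other genes known to be imprinted, 43 were tested. Smoc1, which encodes a secreted matrix protein, was higher in clone 10: 33.6, 39.8 and 35.3 CPM against 9.5, 13.1 and 13.4 CPM in GFP-negative cells (log2 difference 1.60, SE 0.23, adjusted p = 0.040). In GFP-positive cells it was at 38.0, 42.7 and 46.6 CPM against 11.7, 15.8 and 12.2 CPM (1.68, SE 0.23, adjusted p = 0.017). It was the 1 gene of this list called between the clones. Dcn, which is also on the fibroblast list, was lower in GFP-positive cells in the mean of both clones within pairs (-1.64, SE 0.35, adjusted p = 0.044; 1 of 43, against 3.36% of all genes), although it rose from 0.186 to 0.461 CPM in clone 10 pair 1. No other gene of the list was called in these comparisons in either fit.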

How the data were processed

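RNA sequencing libraries were made from total RNA with a TruSeq v2 kit, per the labels' protocols. The authors deposited whole-number read counts of each gene, without scaling. The submitters' processing notes name mm10, HTSeq 0.6.0, STAR 2.3.0e, DESeq and DESeq2. Neither the annotation release nor the use of strand is given in the sources used here. Per the file headers, a further table per clone, made by the authors with DESeq2, repeats the counts and adds a normalized signal, a log2 fold change with its error, a score and p-values. The fold changes and adjusted p-values were used from it, as were its gene symbols and coordinates, which were joined to the counts by Ensembl ID.

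Under R 4.3.3, the quasi-likelihood F test of edgeR 4.0.16 (robust, scaled by TMM) was applied to the counts with a term per group. The filter asked for the equivalent of 10 counts in 3 libraries and 15 counts in total, which left 15179 genes. P-values were adjusted by Benjamini-Hochberg over these genes, and genes with an adjusted p under 0.05 are called. Within a clone, same-numbered libraries deviated from their group means together (correlations of 0.548 to 0.822, against -0.541 to -0.228 for differently numbered libraries), so a second fit held the pair as a block. DESeq2 1.42.0, limma-voom (limma 3.58.1), other scalings and filters, passage as a covariate and leaving out libraries were tried. The scripts were tested on simulated data. Depth was 12968916 to 34258395 counts per library. Counting error is therefore small beside the spread between libraries, except for genes with few counts such as Rtl1, Kcnq1 and Zim1. Exon lengths are from GENCODE M21.

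Genes given in every library were those called in any comparison, the 3 of smallest p in each and the 6 of highest average level. The imprinted genes and all lists were chosen with earlier results of these data known.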

Additional observations from a re-analysis of the deposited data

How the results depend on the processing

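Counts of called imprinted genes changed with the settings as follows, where bare numbers in brackets are counts over all genes. For clone 4 GFP-positive against GFP-negative cells the count was 0 in every setting but the replicate block without single pairs. There it ranged from 0 to 1 (0 to 205). For clone 10 it was 0, and 1 with DESeq2 (289), 1 with the replicate block (641) and 1 with the block and RLE size factors (667). It was 2 with the block and limma-voom (781), 2 with the block and no filter (800) and 7 with the block and DESeq2 (1573). Leaving out single pairs under the block gave 0 to 3 (131 to 644). These were Dio3, Magel2 and Peg10 without clone 4 pair 1, Mest without clone 10 pair 1 and Cdkn1c without clone 10 pair 2. For the mean of both clones it was 0, and 1 with DESeq2 (286) and 6 with the block and DESeq2 (1435). It was 1 with the block and no filter (681) and 0 to 1 without single pairs (124 to 972). For the difference between the clones it was 0, and 1 with the block and DESeq2 (62). For the clones in GFP-negative cells it was 0, and 5 with DESeq2 (418). For the clones in GFP-positive cells it was 3 (168), and 8 with DESeq2 (890). It was 4 with limma-voom (416), with Magel2 added, and 4 with passage as a covariate (376), with Snrpn added. With upper-quartile scaling (137) and with no filter (171) it was 2 each, both without Igf2. The stricter filter, 1 CPM in 6 libraries, removes Rtl1 and gave 1 (100). It was 1 with only the groups compared (38) and 0 to 4 without single libraries (0 to 309). The pairing moved no other call of the 35 genes. For the mean of both clones the replicate block moved the genes that set or keep imprints from 0 to 1 called (Arid4a) and the other imprinted genes from 0 to 1 (Dcn). Among pairs, 7 to 27 imprinted genes were called in clone 4 (2574 to 10084) and 1 to 14 in clone 10 (327 to 4859) when a pair was left out. For clone 10 the lowest count came without clone 10 pair 2. Other than the alternatives named here, the cause was not tested. Depth limits Rtl1, Kcnq1, Zim1, Nap1l5, Magel2 and Usp29, which had under 20 counts in some libraries. With 3 libraries a group and 8 or 4 residual degrees of freedom, a gene that did not pass is not shown to be level.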

Other observations

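H13, an imprinted gene that encodes a signal peptide peptidase, was lower in GFP-positive cells without overlap in either clone. It was at 75.4, 63.5 and 66.5 CPM in GFP-negative and 59.6, 49.8 and 50.3 CPM in GFP-positive cells of clone 4, and at 53.9, 44.7 and 56.1 CPM against 42.9, 38.4 and 40.8 CPM in clone 10. Groups did not overlap in both clones in this direction for 0.25% of all genes. The mean log2 change within pairs was -0.35 (SE 0.08, adjusted p = 0.0591), which did not pass. Uhrf1, the cofactor of the maintenance methyltransferase, was at 288, 264 and 336 CPM in GFP-negative and 265, 295 and 358 CPM in GFP-positive cells of clone 4, and at 628, 594 and 507 CPM and 426, 539 and 436 CPM in clone 10. The clones do not overlap in either gate, with log2 differences of 0.96 (SE 0.21, adjusted p = 0.109) and 0.61 (SE 0.21, adjusted p = 0.181) that did not pass. Both genes were chosen after their values were seen.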
